A study of Mus musculus with 6 samples.

Results

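The miRNA repertoire of the vesicle pellet comprised 350 mature miRNAs of 1906 listed in the count tables (18.4%), chosen as those with at least 10 reads in each of the 3 extracellular vesicle (EV) libraries. The vesicles were released by primary oligodendrocytes, the cells that form myelin in the central nervous system, grown from C57BL/6N mice at embryonic day 14 in Sato medium with 1% horse serum. After a wash, vesicles were gathered over 24 h in Sato medium without serum but with B27, a supplement for neural cultures, from cells at 5 to 6 days in vitro. They were pelleted by spins at 130 g, 10000 g and finally 100000 g, and RNA of 15 to 200 nt was sequenced. All 3 libraries share this strain, medium and age. The labels name no further treatment, genotype or transgene, and do not say whether the replicates were separate cultures, so spread between them may be technical. A pellet of this kind also holds particles other than vesicles, such as protein complexes. The title of the study concerns miRNAs that media supplements add to vesicle preparations. No library of medium alone and no cell library was used here, so the values below describe what the pellet held and not where it came from.

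The libraries held 431004, 313766 and 689475 miRNA reads in replicates 1, 2 and 3. One read was worth 2.32, 3.19 and 1.45 counts per 1000000 reads of the library (CPM) in that order. Members took 99.6% to 99.7% of the reads of each library. A further 595 miRNAs had reads in at least 1 library without meeting the rule, and 961 had none in any. Just inside the threshold, with 10 reads in their lowest library, stood miR-195a-3p, miR-409-5p and miR-133a-3p at 12, 10 and 18, at 17, 10 and 11, and at 14, 10 and 21 reads in replicates 1 to 3. Just outside it, with 9 reads in replicate 2, stood miR-344d-3p (32, 9 and 71), miR-223-3p (30, 9 and 45) and miR-6538 (33, 9 and 21). The smallest library, replicate 2, set the lowest count of all 6. Intervals and floors computed from reads would cover counting error only, since PCR copies are not independent molecules and the use of the random bases in the adapters is not described.

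A mature miRNA is a short RNA cut from one arm of a hairpin and loaded into an Argonaute protein, which it guides to messenger RNAs. The seed, bases 2 to 8 counted from the 5′ end, does most of the target recognition, so miRNAs with one seed are treated as a family. The arm that is loaded is called the guide, and the arm on the opposite side of the hairpin (named 5p or 3p by its position) is mostly degraded. In oligodendrocytes, miR-219a and miR-338 are known to promote differentiation, and miR-138 acts in the same lineage. miR-9, miR-124 and miR-128 are known from neurons and neural progenitors, miR-122 from liver cells and miR-451a from red blood cells.

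Matching by name to RefSeq (build GRCm38.p6) gave a mature sequence for 309 of the 350 members. Entries on the chromosome that carries the miR-143 and miR-145a genes were left out before matching. A member without a sequence here can therefore have one in RefSeq. The sequences below are those of the abundant miRNAs that set the profile, of both arms of the miR-9 hairpin, and of the pair miR-101a and miR-101b, which are alike over most of their length but fall into different seed groups. Capitals mark the seed.
miR-9-5p: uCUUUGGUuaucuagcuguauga
miR-9-3p: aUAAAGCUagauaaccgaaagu
miR-128-3p: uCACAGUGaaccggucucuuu
miR-181a-5p: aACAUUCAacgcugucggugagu
miR-181b-5p: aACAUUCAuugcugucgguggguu
miR-30a-5p: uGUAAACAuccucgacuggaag
miR-30e-5p: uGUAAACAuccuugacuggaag
miR-101a-3p: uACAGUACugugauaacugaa
miR-101b-3p: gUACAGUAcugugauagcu
miR-26a-5p: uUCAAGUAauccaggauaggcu
miR-21a-5p: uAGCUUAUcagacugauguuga
miR-138-5p: aGCUGGUGuugugaaucaggccg
miR-219a-5p: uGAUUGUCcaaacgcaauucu

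The let-7 family is printed in full because its 9 names share one seed and were the largest seed group of the pellet.
let-7c-5p: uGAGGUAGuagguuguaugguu
let-7b-5p: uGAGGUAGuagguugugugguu
let-7g-5p: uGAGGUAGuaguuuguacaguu
let-7f-5p: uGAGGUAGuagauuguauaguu
let-7i-5p: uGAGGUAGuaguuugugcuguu
let-7a-5p: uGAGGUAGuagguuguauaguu
let-7d-5p: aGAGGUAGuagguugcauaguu
miR-98-5p: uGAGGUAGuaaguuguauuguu
let-7e-5p: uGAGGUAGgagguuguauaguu

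A last set shows miRNAs of other tissues, and those whose share differed most between the libraries.
miR-148a-3p: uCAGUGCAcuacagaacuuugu
miR-192-5p: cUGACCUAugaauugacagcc
miR-451a: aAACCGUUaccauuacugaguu
miR-206-3p: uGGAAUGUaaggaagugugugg
miR-146a-5p: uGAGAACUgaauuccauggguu
miR-2137: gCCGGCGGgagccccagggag
miR-221-3p: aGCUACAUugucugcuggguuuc
miR-222-3p: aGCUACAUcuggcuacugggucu

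The profile was steep, and neural miRNAs stood at its top. miR-9-5p, which shapes neural progenitors and neurons, held 9.07%, 12.5% and 8.85% of reads in replicates 1 to 3 (10.2% ± 2.07, SD, n = 3). It was highest in replicate 2. miR-128-3p, abundant in neurons, held 7.87%, 9.01% and 6.77% (7.88% ± 1.12), with the same order of libraries. The ranges of these 2 overlapped, as did those of 18 of the 19 neighbouring pairs among the 20 most abundant miRNAs. The exception was the step from miR-128-3p down to miR-181a-5p, which held 3.65%, 3.80% and 4.19% (3.88% ± 0.28). Overlap was judged on ranges across libraries, so neighbours with overlapping ranges could still keep one order within each library. miR-9-5p lay above miR-128-3p in every library, while miR-181a-5p lay below the next miRNA, miR-9-3p, in replicate 1 only. The order within libraries was not examined for all pairs.

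miR-9-3p, the opposite arm of the leading miRNA, was next at 3.75%, 3.58% and 3.40% (3.58% ± 0.18). miR-30a-5p (3.12% ± 0.41), let-7c-5p (2.99% ± 0.58), miR-181b-5p (2.90% ± 0.16), miR-30e-5p (2.71% ± 0.10), miR-101a-3p (2.71% ± 0.35) and let-7b-5p (2.63% ± 0.62) completed the 10 most abundant. These 10 held 41.4%, 44.8% and 41.5% of reads (42.6% ± 1.97). miR-124-3p, a miRNA specific to neurons, ranked 11 at 2.78%, 2.69% and 2.01%. It was followed by miR-26a-5p (2.07% ± 0.22), miR-19b-3p (1.90% ± 0.28), miR-30d-5p (1.88% ± 0.33), let-7g-5p (1.68% ± 0.23), miR-92a-3p (1.64% ± 0.016), miR-21a-5p (1.60% ± 0.35), let-7f-5p (1.52% ± 0.20), let-7i-5p (1.46% ± 0.28) and miR-219a-2-3p (1.28% ± 0.15). In all, 9 miRNAs were among the 10 most abundant of every library and 18 among the 20 most abundant.

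**Figure D1:**
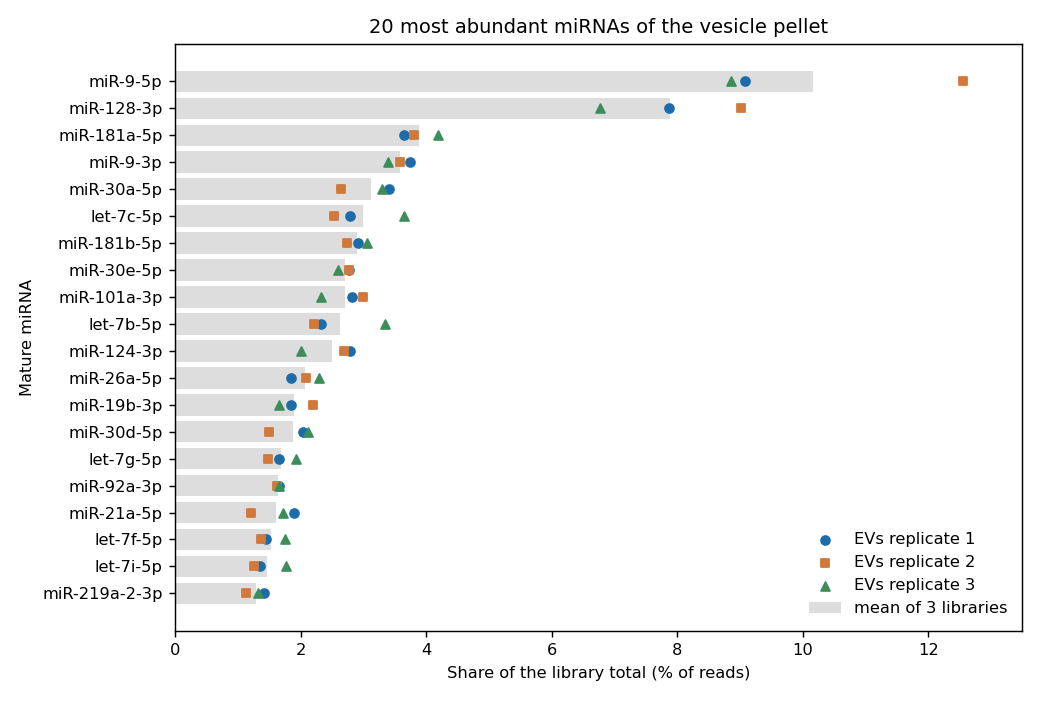
Share of the library total in percent of reads (horizontal axis) for the 20 most abundant mature miRNAs (vertical axis), with 1 point for each of the 3 EV libraries and a grey bar for their mean. miR-9-5p and miR-128-3p lie apart from the rest, and below them the libraries of neighbouring miRNAs overlap.

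Few miRNAs made up most of the reads. It took 15, 13 and 15 miRNAs to reach 50% of reads in replicates 1, 2 and 3, and 84, 77 and 84 to reach 90%. By mean level, 26 members lay at 10000 CPM or more and held 66.6% of reads, 80 lay between 1000 and 10000 CPM and held 26.6%, and 155 lay between 100 and 1000 CPM and held 5.87%. The remaining 89 lay under 100 CPM and held 0.49% together. The median member stood at 361 CPM, against 101575 CPM for miR-9-5p.

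Markers of the labelled cell type were present. The oligodendrocyte lineage list (miR-219a, miR-219b, miR-219c, miR-338 and miR-138) had 7 members among its 12 listed arms. The arms that were not members had few reads, from 9, 6 and 6 for miR-219a-1-3p down to 0, 0 and 1 for miR-219b-5p. No arm of miR-219b or miR-219c was a member. Together the members held 3.64%, 3.49% and 3.39% of reads (3.51% ± 0.13). miR-219a-2-3p stood at 14079, 11222 and 13148 CPM in replicates 1 to 3, miR-138-5p at 11339, 9188 and 10895 CPM, and miR-219a-5p at 7524, 11002 and 6403 CPM. miR-219a-5p was highest in replicate 2, where both of the others were lowest. miR-338-3p stood at 1742, 2088 and 1590 CPM.

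The neuron and neural progenitor list was larger, with 17 members of 23 listed arms and 26.1%, 30.7% and 23.5% of reads (26.8% ± 3.64). Beside miR-9, miR-128 and miR-124 it held miR-132-3p, which neuronal activity induces, at 9949, 11050 and 8656 CPM, and miR-218-5p, known from motor neurons, at 7253, 8494 and 6105 CPM. Lower levels were those of miR-129-5p (4055 ± 206 CPM), miR-137-3p (1851 ± 228 CPM), miR-92b-3p (933 ± 107 CPM), miR-212-3p (418 ± 27.4 CPM) and miR-153-3p (408 ± 85.3 CPM). In bulk RNA, a larger number of vesicles from one cell type and more RNA per vesicle cannot be told apart, and whether neurons were in the cultures was not tested.

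Seed families concentrated the profile further. The 309 members with a sequence fell into 250 seeds, of which 218 held 1 name and 32 held several. The 41 members left without a sequence after matching held 9.74% of reads and are in no group. The 10 largest of the groups that could be formed took 58.0% ± 1.57 of reads (SD, n = 3). miR-124-3p, at 2.50%, is among the members left out, and its share alone exceeded those of the last 2 of these 10. Of these, 4 groups consist of a single name (miR-9-5p, miR-128-3p, miR-9-3p and miR-101a-3p), and 6 hold several.

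let-7, a family whose members restrain proliferation and accumulate as cells mature, was the largest group, at 10.5%, 9.71% and 13.6% of reads (11.3% ± 2.07), above miR-9-5p on average but within its spread. Replicate 3 was the highest and replicate 2 the lowest for 9 of its 9 names, beside 139 (39.7%) and 173 (49.4%) of all 350 members. Within the family the proportions varied little: let-7c-5p made 26.4%, 26.1% and 26.8% of family reads, let-7b-5p 23.1% ± 1.28 over the 3 libraries, and let-7i-5p 12.8%, 12.9% and 13.0%. let-7g-5p made 15.0% ± 0.77, let-7f-5p 13.6% ± 0.65 and let-7a-5p 5.80% ± 0.28. let-7d-5p, miR-98-5p and let-7e-5p were each under 2% of the family. The names differ by few bases, so reads could have been exchanged between them in alignment.

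The miR-181 group, known from neural and immune cells, held 7.20%, 7.31% and 7.98% (7.50% ± 0.42). miR-181a-5p made 51.7% ± 0.92 of it and miR-181b-5p 38.7% ± 1.54, with miR-181d-5p at 5.97% ± 0.48 and miR-181c-5p at 3.59% ± 0.43. The miR-30 group, expressed in most tissues, held 7.44%, 6.59% and 7.23% (7.09% ± 0.44). In it miR-30a-5p made 45.9%, 40.2% and 45.6% and miR-30e-5p 37.3%, 41.9% and 35.9%, so that the order of these 2 was reversed in replicate 2. miR-30c-5p made 15.7% ± 0.88 and miR-384-5p 2.03% ± 0.23. miR-30d-5p and miR-30b-5p had no sequence in the table and are not in the sum; together they held 2.39%, 1.84% and 2.56% of reads.

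The seed AAAGUGC joined miR-93-5p (35.4% ± 2.32 of the group), miR-20a-5p (26.9% ± 2.86), miR-106b-5p (25.9% ± 1.01) and miR-17-5p (11.8% ± 0.13), miRNAs linked to proliferation that come from paralogous clusters. This group held 2.94% ± 0.13 of reads. The seed AUUGCAC held 2.48% ± 0.082, of which miR-92a-3p made 66.4% ± 1.59, miR-25-3p 29.5% ± 1.27, miR-92b-3p 3.76% ± 0.31 and miR-32-5p 0.35% ± 0.072. The seed GUGCAAA held 2.43% ± 0.34, with 78.3% ± 0.35 from miR-19b-3p and 21.7% ± 0.35 from miR-19a-3p. miR-101a-3p and miR-101b-3p were counted as different seed groups, at 2.71% ± 0.35 and 1.20% ± 0.064. Their printed sequences are identical over 15 bases once miR-101b-3p is read from its base 2, so that the seed differs through the annotated start.

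**Figure D2:**
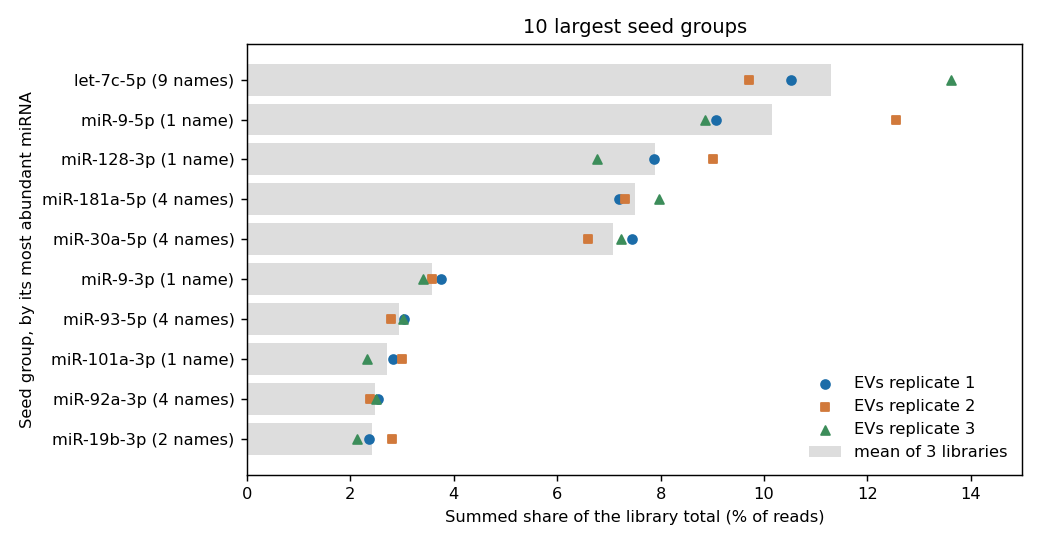
Summed share of the library total in percent of reads (horizontal axis) for the 10 largest seed groups, each labelled by its most abundant miRNA and its number of member names (vertical axis); points are the 3 EV libraries and grey bars their mean. The let-7 group ranges from 9.71% to 13.6% and overlaps miR-9-5p, while the miR-92a-3p group varies least.

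Genes that lie beside each other are often transcribed together, and hairpins within 10 kb on one strand in RefSeq were grouped as clusters. Only names with a sequence in the table could be placed, so the sums and member counts below leave out members without one. miR-485-5p (107, 41.4 and 75.4 CPM), whose other arm is counted in the miR-379 cluster, is among those left out. The miR-17 to miR-92-1 cluster held 5.35%, 5.72% and 4.96% of reads over 8 members, from 19007 CPM for miR-19b-3p to 54.7 CPM for miR-18a-3p. Its most abundant members, miR-19b-3p (1.90%) and miR-92a-3p (1.64%), are also encoded by second copies on chromosome X, and their reads cannot be assigned to one locus. The sum is therefore an upper limit for what these 8 members gave from this cluster. The imprinted Dlk1-Dio3 region gave 2 clusters: miR-379 and its neighbours held 1.46% ± 0.20 over 32 members, led by miR-376a-3p at 2005 CPM, and miR-770 to miR-136 held 0.82% ± 0.12 over 15 members, led by miR-434-3p at 2789 CPM. The miR-379 cluster was highest in replicate 1 for 18 of its 32 members and the miR-770 cluster in replicate 2 for 10 of its 15. Of all 350 members, 110 (31.4%) were highest in replicate 1 and 101 (28.9%) in replicate 2. The miR-106b to miR-25 cluster held 2.61% ± 0.20 over 5 members.

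Most hairpins delivered mainly one arm. Of 233 hairpin names with at least 10 reads over both arms in every library, the 5p arm was higher in 106 (45.5%) and the 3p arm in 107 (45.9%) by limma's test of log2((5p + 0.5)/(3p + 0.5)) against 0, at a Benjamini-Hochberg adjusted p below 0.05. The remaining 20 were called in neither direction. The minor arm held under 1% of hairpin reads in 82 names and under 5% in 143. Summed over these hairpins, 5p arms held 61.5% ± 2.15 of reads (60.2%, 60.3% and 64.0%). Copies that carry their own number in the name of an arm were summed in 25 names. Loci that share the names of both arms cannot be told apart here and are not counted among the 25.

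Among the largest 5p excesses were those of miR-181d, at 1720, 1490 and 3231 reads of the 5p arm against 0, 0 and 2 of the 3p arm, and of miR-21a, which promotes growth and is raised in injury, at 8130, 3806 and 11814 against 5, 3 and 1. Their log2 ratios were 11.21 (SE 0.36) and 11.19 (SE 0.57), and their order was not settled: with a pseudocount of 1 miR-181d stood at 10.45, below miR-21a at 10.94 and miR-26a at 10.53, and without replicate 1 at 10.94 against 11.52 for miR-21a. miR-26a (10.65), miR-122 (10.13), miR-7b (10.07) and miR-149 (9.95) followed, with SEs of 0.31 to 0.37. The largest 3p excess was that of miR-128, at 33923, 28270 and 46683 reads of the 3p arm against 6, 2 and 12 (log2 ratio -12.56, SE 0.38). miR-101b (-11.73), miR-344 (-10.81), miR-328 (-10.70), miR-101a (-10.26) and miR-381 (-10.12) came next, with SEs of 0.28 to 0.55. The limma adjusted p-values of the 12 named ratios were at most 3.83e-06. Where the minor arm had 0 reads in 2 or 3 libraries, the size of the ratio depends on the pseudocount: with 1 in place of 0.5, miR-7b moved to 9.08, miR-149 to 9.19, miR-328 to -9.90 and miR-381 to -9.12. miR-328 then ranked below miR-101a (-10.19).

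In a smaller set the arms were less unequal: in 38 hairpin names the minor arm held at least 25%. Some of the 38 had few reads, such as miR-664 with 15, 4 and 25 reads of the 5p arm against 14, 9 and 36. The most abundant of the 38 was miR-9, whose 5p arm made 73.6% ± 3.70 of hairpin reads (log2 ratio 1.49, SE 0.28, limma adjusted p = 0.00197). By library it made 70.8%, 77.8% and 72.3% in replicates 1 to 3. The next 5 were not called. In the miR-219a hairpins the 5p arm made 39.0% ± 9.12 (log2 ratio -0.66, SE 0.32, limma adjusted p = 0.089), in let-7d 37.2% ± 11.3 (-0.78, SE 0.35, adjusted p = 0.0729), in miR-708 55.3% ± 5.50 (0.31, SE 0.28, adjusted p = 0.323), in miR-338 43.0% ± 7.13 (-0.41, SE 0.30, adjusted p = 0.22) and in miR-384 47.3% ± 3.77 (-0.16, SE 0.27, adjusted p = 0.585). Without replicate 2, where its arms stood at 3452 and 3527 reads, miR-219a was called higher on the 3p side (log2 ratio -0.97). Without replicate 3 so was let-7d (-1.14). Among the oligodendrocyte hairpins, miR-219a and miR-338 thus gave abundant reads from either arm, while miR-138 was called higher on the 5p side, with 97.1% ± 0.22 of its reads there. The miR-219a value sums 2 hairpin copies, whose 3p arms were unequal: miR-219a-2-3p had 6068, 3521 and 9065 reads and miR-219a-1-3p 9, 6 and 6.

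**Figure D3:**
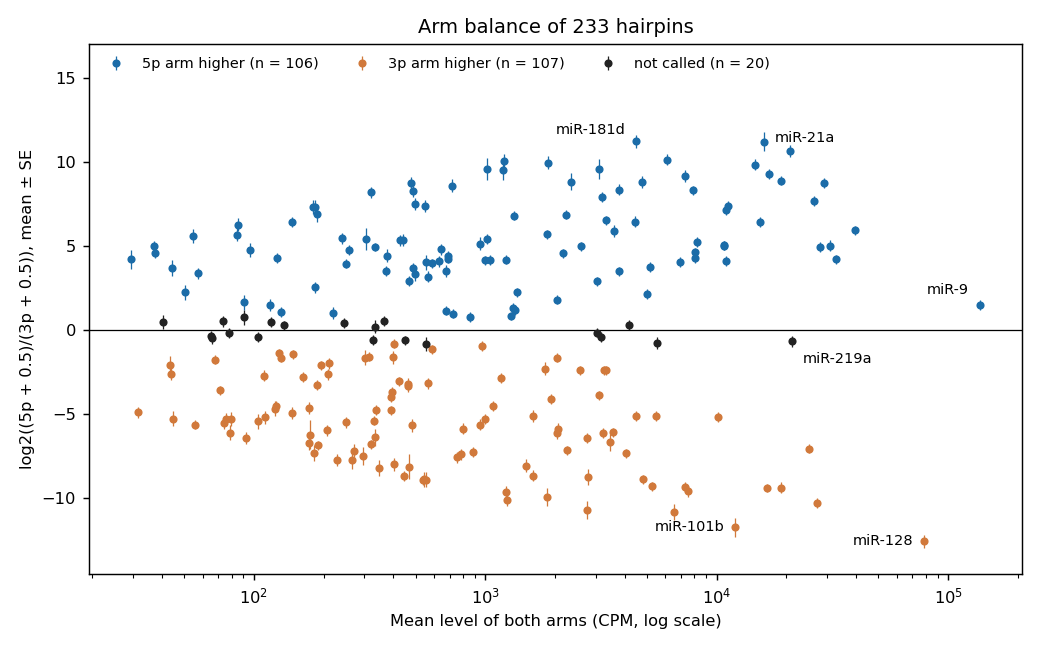
log2 ratio of 5p over 3p reads with a pseudocount of 0.5 (vertical axis, mean and SE over 3 EV libraries) against the mean CPM of both arms (horizontal log axis) for 233 hairpin names. Blue points are called higher on the 5p side (106), orange on the 3p side (107) and black in neither direction (20), and miR-128 is the most one-sided of the abundant hairpins.

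The 3 libraries were close for most members and far apart for a few. Across the 350 members, which are not independent replicates, log2 shares of library pairs correlated with a Pearson r of 0.979 to 0.984, and 92.0% to 95.7% of members lay within 2-fold. The median CV of a member's share was 18.3%, and edgeR's common biological CV over the 3 libraries was 21.6%. By a chi-square test of homogeneity over the libraries with Benjamini-Hochberg adjustment, 207 members (59.1%) differed beyond counting noise. Of these, 41 (11.7% of members) also had a highest share at least 2 times the lowest, and these are called variable below. The test compares these libraries and no conditions. Replicate 2 was the lowest library for 24 of the 41 (58.5%) and the highest for 5, while it was the lowest for 173 of all 350 members (49.4%).

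Among the most stable were miR-92a-3p at 16552, 16245 and 16462 CPM, miR-186-5p at 3220, 3302 and 3298 CPM, and miR-484 at 6445, 6645 and 6427 CPM (chosen after their values were seen). Their highest and lowest shares differed by a factor of 1.02 to 1.03. Of the 100 most abundant members 4 were variable: miR-451a, miR-143-3p, miR-2137 and miR-6236.

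miR-2137 had the largest spread of all, at 2737, 360 and 392 reads or 6350, 1147 and 569 CPM. Replicate 1 stood 11.2 times above replicate 3. Without replicate 1 the ratio was 2.02 and the miRNA was still variable. miR-6236 (2139, 1692 and 714 CPM) and miR-6240 (121, 44.6 and 37.7 CPM) were also highest in replicate 1, while miR-5099 stood at 826, 790 and 1738 CPM, highest in replicate 3. No role is given here for these 4 miRNAs.

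miR-146a-5p, which inflammatory signals induce in myeloid and other cells, stood at 1248, 303 and 1504 CPM. It was low in replicate 2 alone, and without that library its ratio was 1.20 and the miRNA was not variable. miR-206-3p, a miRNA of skeletal muscle, stood at 206, 121 and 467 CPM, highest in replicate 3, and without that library its ratio was 1.71. The red cell miRNAs miR-144-3p (102, 54.2 and 26.1 CPM) and miR-144-5p (69.6, 31.9 and 27.6 CPM) were highest in replicate 1. miR-154-3p (25.5, 60.6 and 24.7 CPM) and miR-136-5p (25.5, 73.3 and 43.5 CPM), both of the Dlk1-Dio3 region, were highest in replicate 2. miR-320-5p (53.4, 38.2 and 14.5 CPM) and miR-383-5p (125, 86.1 and 225 CPM) completed the 12 with the largest spread beyond counting noise. Of these 12, miR-2137 was variable with any 1 library left out, and the other 11 lost that call in at least 1 such case.

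Several variable miRNAs from shared clusters had the same low library, replicate 2. That library was the lowest for 24 of the 41 variable members (58.5%), so a shared low library was common. miR-221-3p (464, 188 and 322 CPM) and miR-222-3p (343, 150 and 244 CPM), neighbours with one seed, were both variable and both lowest in replicate 2. The same was true of miR-23a-3p (459, 172 and 415 CPM) and miR-27a-3p (299, 185 and 402 CPM), and of miR-23b-3p (766, 322 and 582 CPM) from the paralogous cluster. miR-24-3p, which both of those clusters encode, was also lowest there (2223, 1457 and 2396 CPM) but not variable. Nor was miR-27b-3p of the paralogous cluster, at a mean of 4775 CPM. These miRNAs were chosen after their values were seen.

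**Figure D4:**
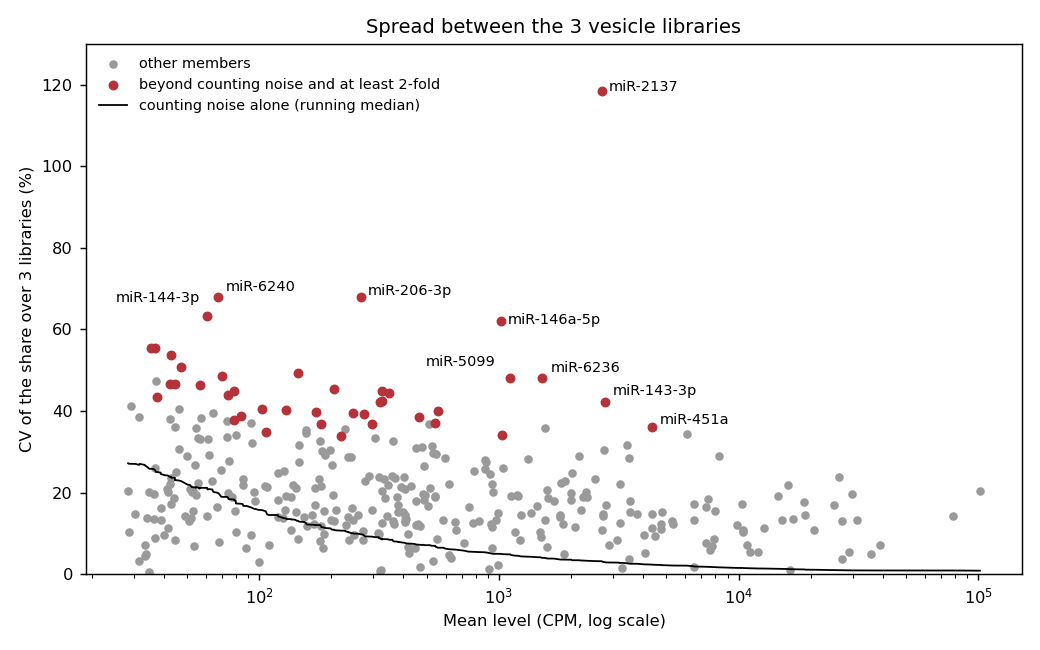
CV of the share over the 3 EV libraries in percent (vertical axis) against the mean CPM (horizontal log axis) for the 350 members. The black line is the running median of the CV that counting noise alone would give; red points mark the 41 variable members, of which miR-2137 lies highest.

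The members of the non-neural tissue lists held a small share of the reads. Most reads of the pellet belonged to miRNAs in no list, neural or non-neural, such as let-7 and miR-30. The share below is therefore that of the listed names only, and not of all miRNAs that non-neural tissues express. The 13 lists of such tissues contributed 28 members of 147 listed arms, with 3.00%, 2.23% and 3.29% of reads (2.84% ± 0.55), against 30.3% ± 3.68 for the 24 members of both neural lists. The median level of these 28 was 155 CPM, against 361 CPM for all members, and of the 24 neural members 1583 CPM. Variable members numbered 12 of the 28 (42.9%), against 11.7% of all members and 0 of the 24 neural ones. These sets differ in level, and only 4 of the 100 most abundant members were variable. Sets of like level were not compared. The 28 also include both arms of some hairpins and cluster neighbours, which are not independent. The 12 include miR-199b-3p, which shares its mature sequence with miR-199a-3p. The summed share of these names had a highest over lowest ratio of 1.79, below the limit of 2. Replicate 2 was lowest for 20 of the 28, beside 173 of all 350.

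The liver, kidney and gut list was the largest, at 1.55%, 1.25% and 2.02% of reads (1.61% ± 0.39) over 4 members of 13 listed. miR-148a-3p, common in liver but not confined to it, ranked 33 of 350 at 7123, 6336 and 9021 CPM. miR-122-5p, made in quantity by hepatocytes, ranked 39 at 5710, 4194 and 8316 CPM, from 2461, 1316 and 5734 reads. miR-192-5p, of liver, kidney and gut epithelium, stood at 2497, 1845 and 2686 CPM. All 3 were highest in replicate 3 and lowest in replicate 2. miR-194-5p, whose gene lies beside a copy of miR-192, stood at 204, 153 and 202 CPM. miR-802-5p, another liver miRNA, had 12, 2 and 12 reads and was no member.

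The erythroid list held 0.855%, 0.586% and 0.441% of reads (0.63% ± 0.21) over 5 members of 8 listed. miR-451a, which is cut by Argonaute 2 without Dicer, ranked 46 at 5981, 4280 and 2841 CPM. miR-486a-5p stood at 1752, 1135 and 1076 CPM and miR-486b-5p at 645, 357 and 435 CPM. Replicate 1 was the highest library for 5 of the 5 members and replicate 3 the lowest for 4, an order unlike that of the liver list. Of all 350 members, 110 (31.4%) were highest in replicate 1 and 91 (26%) lowest in replicate 3. miR-451a and both arms of miR-144 were variable.

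Mural cell miRNAs held 0.27%, 0.24% and 0.47% (0.33% ± 0.12) over 3 members. miR-143-3p, of smooth muscle and pericytes, stood at 2230, 1989 and 4136 CPM and was variable. Its neighbour miR-145a-5p stood at 450, 347 and 434 CPM, and miR-145a-3p at 48.7, 35.1 and 85.6 CPM. The leukocyte list held 0.17%, 0.056% and 0.18% (0.13% ± 0.068) over 3 members of 11 listed: miR-146a-5p, described above, and the arms of miR-142a at 267, 153 and 175 CPM (3p) and 148, 108 and 129 CPM (5p). The granulocyte miRNA miR-223-3p fell just outside the threshold, as given above, and the lymphocyte miRNA miR-150-5p had 2, 5 and 7 reads.

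In each of the other lists the members together held under 0.05% of reads in every library. Striated muscle had 2 members of 18 listed, miR-206-3p and miR-133a-3p (32.5, 31.9 and 30.5 CPM), while 11 of its arms were at 0 throughout. Mesenchyme had 2 names, miR-199a-3p (167, 137 and 209 CPM) and miR-199b-3p (111, 57.4 and 139 CPM), which share one mature sequence. Endothelium had both arms of miR-126a, at 128, 63.7 and 129 CPM (3p) and 125, 118 and 174 CPM (5p). The miR-183 cluster of sensory cells had miR-182-5p (227, 121 and 203 CPM) and miR-183-5p (95.1, 63.7 and 97.2 CPM).

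The Hox cluster list had miR-10a-5p (116, 51.0 and 84.1 CPM) and miR-10b-5p (41.8, 44.6 and 76.9 CPM). Choroid plexus and ciliated cells had miR-34c-5p (132, 76.5 and 69.6 CPM) and miR-34b-5p (62.6, 41.4 and 23.2 CPM). Epithelium had 1 member of 14 listed, the skin miRNA miR-203-3p at 92.8, 44.6 and 98.6 CPM. Pancreas and pituitary endocrine cells had 0 members of 10 listed, with 25 reads in all. The pluripotent cell list had 0 reads in its 28 arms in every library, which allows each arm up to 3 reads, or 4.35 to 9.56 CPM.

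**Figure D5:**
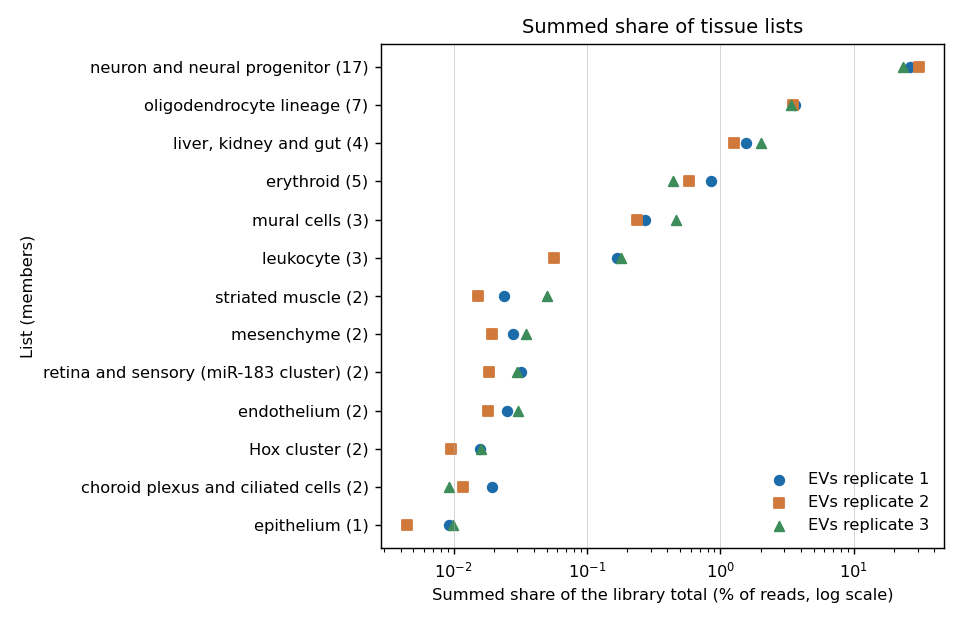
Summed share of the library total in percent of reads (horizontal log axis) for each list with members, with the number of members in brackets (vertical axis) and 1 point per EV library. Neural lists lie at the top, followed by the liver, kidney and gut list at 1.25% to 2.02% and the erythroid list at 0.441% to 0.855%, and replicate 2 is lowest in 9 of the 11 non-neural lists.

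Sequence features were compared between the 309 members with a sequence and the 1622 listed miRNAs that had one after the same matching. The members averaged 48.2% GC against 52.3%, and began with U in 42.1% of names against 40.3%. Weighted by reads, U began 68.7%, 70.8% and 69.5% of the reads of these 309 members in replicates 1 to 3, and GC was 43.5%, 43.0% and 43.2%. Reads of members without a sequence are not in these values. A first base of U is known to favour loading into Argonaute.

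Short motifs that have been reported to sort miRNAs into vesicles were counted as letters on the mature strand. GGAG occurred in 28 of the 309 members (9.06%) and in 14.2% of all listed sequences. Weighted by reads it was in 2.04%, 1.36% and 1.39% of the reads of these 309. Its most abundant carriers were miR-2137 (2689 CPM), miR-708-5p (2315 CPM) and miR-298-5p (2203 CPM). GGCU occurred in 46 of the 309 (14.9%) and in 13.1% of all listed, and in 6.56%, 6.47% and 7.20% of the reads of the 309, led by miR-26a-5p. The sets differ in base composition, so these shares are given as descriptions and nothing on sorting was tested.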

How the data were processed

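The 3 EV libraries of the series were used; the 3 cell libraries were not used here. The authors deposited raw read counts per mature miRNA, 1 table per library. Tools named per the submitters' processing notes were featureCounts 1.4.6-p4 and Bowtie 0.12.8 for mouse build NCBIM37 (mm9) together with cutadapt 1.7.1 and bcl2fastq 1.8.4. How reads with several matches were counted, the use of strand, other settings and the annotation version were not given in the sources used here. Names with one sequence or near-identical sequences could therefore share or lose reads.

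Shares are counts over the library total (313766 to 689475 reads), without a scaling factor. Members had at least 10 reads in every library. Variable members came from a chi-square test of each count against the rest of its library (2 degrees of freedom, SciPy 1.17.1), with Benjamini-Hochberg adjustment below 0.05 and a ratio of at least 2. Spread beyond counting noise is the square root of the squared CV less the mean of 1/count. Arms were tested with limma 3.58.1 (R 4.3.3, two-sided, intercept only). edgeR 4.0.16 gave the dispersion. Both tests were tested on simulated data. Seeds came from RefSeq sequences (GRCm38.p6), matched by name after entries on the chromosome of the miR-143 and miR-145a genes were dropped. From this build only sequences and neighbourhood were taken.

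The miRNAs and lists were chosen with earlier results of these data known. Named were the 20 most abundant members, the 10 largest seed groups with up to 4 leading names, the 12 most variable, 6 hairpins per direction and the 6 most abundant with a minor arm of at least 25%, the 4 leading members of each list, and 3 miRNAs on each side of the threshold.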

Additional observations from a re-analysis of the deposited data

How the results depend on the processing

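Depth limits the rule: replicate 2, with 313766 reads, decided most borderline cases. With at least 1 read in every library 566 miRNAs would qualify, and with 2 libraries in place of 3 the number was 351 to 397, the highest without replicate 2. The share of the 10 most abundant miRNAs was 36.1% of the total without miR-9-5p, since the leading miRNA is then not counted. The non-neural share was 2.09% without miR-148a-3p. The number of variable members was 26 with a minimum of 20 reads and 102 with a ratio of 1.5, both by construction. It was 18 to 26 when a library was left out, 26 without replicate 1, 18 without replicate 2 and 23 without replicate 3, where fewer libraries are compared. With TMM sizes 43 and with DESeq2 size factors 41 were variable, of which 36 and 34 were among the 41. Ranking the variable members by edgeR's tagwise dispersion kept 8 of the 12 named. The arm counts stayed within 1.5 times under each alternative run, at 89 to 151 for 5p and 95 to 150 for 3p. Among 349 values of 50 named shares under alternatives, 341 moved by less than 1 SD and 8 by more. Much of this was fixed in advance. Leaving out 1 of the 3 libraries cannot move a mean by 1 SD of the same libraries. Using the members' reads as total changes little, since members took nearly all reads. The 341 are therefore no measure of how stable the shares are. Those 8 all came from leaving miR-9-5p out of the total. With minimums of 1, 5 and 20 reads, chosen after seeing the data, the share of members with GGAG was 9.71%, 9.78% and 8.64%. No paired analysis was possible because no groups were compared.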

Other observations

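Names that share one mature sequence received unequal counts. let-7a-1-3p and let-7c-2-3p, which are identical in the RefSeq table, had 154 and 399 reads in replicate 1, 153 and 359 in replicate 2 and 228 and 477 in replicate 3, a ratio of 2.59, 2.35 and 2.09. miR-199a-3p and miR-199b-3p had 72 and 48, 43 and 18, and 144 and 96 reads. How reads of such names were divided was not tested.

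Some miRNAs of the lists were well counted in 1 library and missed the rule through another (chosen after their values were seen). miR-449a-5p, of ciliated epithelia, had 84, 10 and 6 reads in replicates 1 to 3, or 195, 31.9 and 8.70 CPM. miR-155-5p, induced in activated myeloid cells, had 54, 6 and 43 reads, lowest in replicate 2 like miR-146a-5p. miR-1a-3p, of heart and skeletal muscle, had 7, 2 and 33 reads, highest in replicate 3 like miR-206-3p. miR-205-5p, of stratified epithelia, had 14, 3 and 4 reads, and miR-375-3p, of endocrine cells, 10, 2 and 9.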
